A study of Mus musculus with 4 samples.

Results

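TRAV1 and TRAV2 are the V segments at the 5′ end of the mouse Tra locus, the farthest from the TRAJ segments they must join, and TRAV1 is the V segment of the MAIT chain. Their TCRα clones were taken as all clones whose best V hit, with the allele removed, was TRAV1 or TRAV2. They came to 2142 of 189388 TCRα clones (1.13%) and 8454 of 871808 TCRα reads (0.970%), of which TRAV1 held 1865 clones and 7382 reads and TRAV2 held 277 clones and 1072 reads. No read of either segment matched a further V segment, so neither level depended on how reads of V gene copies were shared out.

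TCR transcripts of CD4 T cells from the spleen were sequenced in 2 WT and 2 Tet2/3 DKO libraries, numbered as biological replicates, and the mice were 25 days old on average. Tet2/3 DKO mice (Tet2-/- Tet3 flx/flx CD4Cre) lack TET2 in all tissues and lose TET3 through a Cre recombinase driven by Cd4 regulatory elements, which is active in thymocytes from the double positive stage on. In both genotypes live CD4+ CD25- TCRβ+ cells were sorted, and cells binding the αGalCer-CD1d tetramer, the iNKT cells, were excluded. No gate on MR1 was used, α and β chains were not paired, and only TCR transcripts were read, so that fewer cells with a chain and less RNA per cell cannot be told apart. Levels of Tet2, Tet3, Cd4 and other cell markers were not measured in these libraries, so the labels were not checked against them.

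As background, Tra rearranges by deletion in rounds: early joins use V and J segments that lie close to each other, and later rounds replace them with more 5′ V and more 3′ J segments. MAIT cells are innate-like T cells that recognise riboflavin metabolites on MR1, and they share an α chain that joins TRAV1 to TRAJ33 with a CDR3 of constant length. In mice many MAIT cells carry neither CD4 nor CD8, so a CD4 sort is not a sort for them.

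On GRCm38 (mm10), RefSeq places Trav1 at chr14:52427967-52428876 and Trav2 at chr14:52567293-52568053, the first and second of 130 Trav genes in order along the chromosome. Trav1 ended 1726 kb and Trav2 1587 kb before Traj61, and the stretch from Traj61 to Traj2 spanned 62.9 kb. The V exon sequences below are the most frequent ones in the reads from framework region 1 to framework region 3, with CDR1 and CDR2 in capitals. They are shown because these germline loops are fixed by the choice of V segment, while CDR3 is made anew in each cell. They were carried by 95.8% of the covered TRAV1 reads and 95.2% of the covered TRAV2 reads.
TRAV1: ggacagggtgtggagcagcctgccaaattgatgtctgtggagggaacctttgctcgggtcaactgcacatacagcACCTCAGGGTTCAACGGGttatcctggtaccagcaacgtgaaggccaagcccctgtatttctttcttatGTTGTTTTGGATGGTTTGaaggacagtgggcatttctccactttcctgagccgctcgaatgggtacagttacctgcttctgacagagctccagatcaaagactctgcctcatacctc
TRAV2: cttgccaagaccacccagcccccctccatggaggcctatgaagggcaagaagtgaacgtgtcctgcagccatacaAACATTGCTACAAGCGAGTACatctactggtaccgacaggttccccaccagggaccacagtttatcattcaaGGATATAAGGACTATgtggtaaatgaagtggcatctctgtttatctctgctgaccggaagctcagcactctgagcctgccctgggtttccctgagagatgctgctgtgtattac
The CDR1 and CDR2 of TRAV1 read TSGFNG and VVLDGL, and those of TRAV2 read NIATSEY and GYKDY. The V exons shared 52.0% of aligned bases. The closest other V segment was TRAV7D-3 for TRAV1 (56.6%) and TRAV21/DV12, a J-proximal segment, for TRAV2 (63.7%).

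The MAIT-like chains, which are TRAV1-TRAJ33 joins with an in-frame CDR3 of 12 amino acids, had 6 distinct CDR3 nucleotide sequences in the 4 libraries. All 6 are given here, with the stretch that the deposited alignment assigned to TRAJ33 in capitals and the TRAV1 stretch and any bases between them in lower case. The alignment allows mismatches, so a single base within a stretch can differ from the germline segment.
MAIT-like 1 (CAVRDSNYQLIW): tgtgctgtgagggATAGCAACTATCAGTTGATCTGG
MAIT-like 2 (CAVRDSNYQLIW): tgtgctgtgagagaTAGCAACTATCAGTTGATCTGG
MAIT-like 3 (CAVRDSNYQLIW): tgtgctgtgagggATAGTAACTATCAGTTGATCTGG
MAIT-like 4 (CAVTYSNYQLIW): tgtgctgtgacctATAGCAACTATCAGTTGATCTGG
MAIT-like 5 (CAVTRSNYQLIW): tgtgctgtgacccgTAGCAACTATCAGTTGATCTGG
MAIT-like 6 (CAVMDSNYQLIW): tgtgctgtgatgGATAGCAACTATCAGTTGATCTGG
Between the aligned stretches, sequences 1, 2, 3 and 6 had 0 inserted bases, sequence 4 had 3 and sequence 5 had 4. Sequences 2, 3 and 6 each differed from sequence 1 at 1 base, sequence 4 at 3 and sequence 5 at 4. At the protein level only residues 4 and 5, counted from the first cysteine, varied among the 4 CDR3s.

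The question of the comparison was whether the loss of TET2 and TET3 altered the use of the distal V segments. The TCRα tables held 172506 and 216457 reads in WT libraries 1 and 2, and 195046 and 287799 in Tet2/3 DKO libraries 1 and 2. The clones per library numbered 39463 to 53844, and 25.8% to 26.8% of them had 1 read. TRAV1 had 1484 to 2395 reads per library and TRAV2 only 179 to 357, so TRAV2 values were the less precise. Reads carried no molecular identifiers, so that the intervals and limits of detection given here, 95% Wilson intervals and a limit of 3 reads, cover counting error only.

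TRAV1 held a modest and TRAV2 a small share of TCRα reads, and neither share differed between genotypes beyond the spread between libraries. TRAV1 made up 0.860% (interval 0.818% to 0.905%) and 1.11% (1.06% to 1.15%) of the reads in WT, compared with 0.892% (0.851% to 0.934%) and 0.613% (0.585% to 0.642%) in Tet2/3 DKO. The first Tet2/3 DKO library lay between the WT libraries, and the second lay below all others. TRAV2 made up 0.104% (0.0896% to 0.120%) and 0.139% (0.124% to 0.155%) in WT, versus 0.121% (0.107% to 0.137%) and 0.124% (0.112% to 0.138%) in Tet2/3 DKO. Both Tet2/3 DKO values lay between the WT values.

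**Figure D1:**
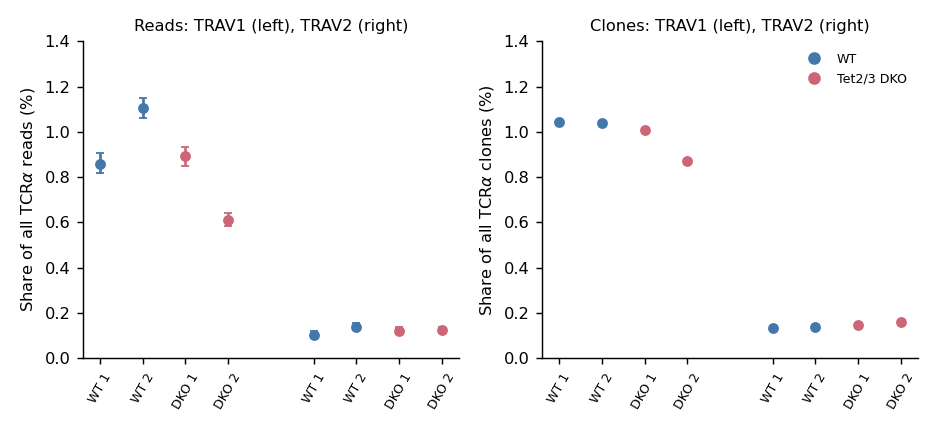
Share of all TCRα reads (left, with 95% Wilson intervals for counting error) and of all TCRα clones (right), in percent, held by TRAV1 and TRAV2 in each WT (blue) and Tet2/3 DKO (red) library. TRAV1 lay between 0.613% and 1.11% of reads and TRAV2 between 0.104% and 0.139%, with the genotypes overlapping for both in reads but not in clones.

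In edgeR's quasi-likelihood test over 101 V segments, the log2 fold change of Tet2/3 DKO over WT was -0.39 (SE 0.22, adjusted p = 0.972) for TRAV1 and 0.01 (SE 0.36, adjusted p = 0.979) for TRAV2. The fold change of TRAV1 was -0.68 without Tet2/3 DKO library 1 (edgeR, adjusted p = 0.0856) and -0.14 without Tet2/3 DKO library 2 (adjusted p = 0.999). In these fits the lone Tet2/3 DKO library is assumed to vary like the WT pair, from which the spread then comes. Of all V segments 0.0% were called, so the 0 of 2 called here equalled the background. At an unadjusted p under 0.05 edgeR returned 3 V segments (2.97%), and TRAV1 and TRAV2 were not among them, and DESeq2 called 0 and returned 3 at that unadjusted threshold. In shares of clones TRAV1 held 1.04% and 1.04% in WT, compared with 1.01% and 0.871% in Tet2/3 DKO. Both Tet2/3 DKO shares of clones lay below both WT shares (exact permutation test, two-sided, p = 0.333), as they did for 19.5% of 77 V segments with at least 100 CDR3-covered reads in each library. TRAV2 held 0.134% and 0.139% of clones in WT, but 0.146% and 0.162% in Tet2/3 DKO, higher in both, as for 11.7% of V segments. With 2 libraries per genotype, 0.333 is the smallest p this test can give.

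By mean share, TRAV1 was number 35 and TRAV2 number 72 of 101 V segments. The neighbours of TRAV1 in this order were TRAV3-3 (mean 0.886%) and TRAV7N-6 (0.860%), and their libraries spread from 0.747% to 1.11% and from 0.616% to 1.26%, so that the 3 segments did not differ beyond their spread. The neighbours of TRAV2 were TRAV8N-2 (mean 0.131%) and TRAV15N-1 (0.115%), whose libraries also spread on both sides of those of TRAV2. The first 3 residues of the in-frame CDR3 were those of the V segment in most reads. CAV opened 81.8% to 96.0% of in-frame TRAV1 reads and CIV opened at least 93.1% of in-frame TRAV2 reads in each library.

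Both segments joined mainly TRAJ segments in the middle of the cluster and almost never those at its 5′ end. TRAJ numbers fall with distance from the V segments, from TRAJ61 nearest to them to TRAJ2 farthest, so a lower mean TRAJ number means that reads joined, on average, TRAJ segments farther from the V segments. The mean TRAJ number of TRAV1 reads was 25.4 and 23.7 in WT, versus 23.96 and 22.8 in Tet2/3 DKO, and that of TRAV2 was 25.4 and 24.8 in WT, compared with 22.6 and 24.6 in Tet2/3 DKO. For all other V segments together it was 29.3, 29.0, 29.0 and 29.1 in the same order.

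TRAV1 was below all other V segments in 4 of 4 libraries, with a mean difference of -5.14 ± 1.03 (SD, n = 4 libraries). TRAV2 was also below them in 4 of 4 libraries, with a mean difference of -4.74 ± 1.12. The exact sign-flip permutation test over the libraries, two-sided, gave p = 0.125 for each (adjusted p = 0.15 over 30 comparisons within libraries), and 0.125 is the smallest p that 4 libraries allow. TRAV1 and TRAV2 did not differ from each other in a constant direction: TRAV1 was higher in 2 of 4 libraries, with a mean difference of -0.40 ± 1.39 (exact sign-flip permutation test, p = 0.75). The J-proximal segments TRAV17, TRAV19 and TRAV21/DV12 as 1 group averaged 49.0, 49.99, 49.9 and 51.9. Against them the mean difference was -26.2 ± 2.26 for TRAV1 and -25.9 ± 1.80 for TRAV2, lower in 4 of 4 libraries (exact sign-flip permutation test, p = 0.125 and adjusted p = 0.15 for each).

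**Figure D2:**
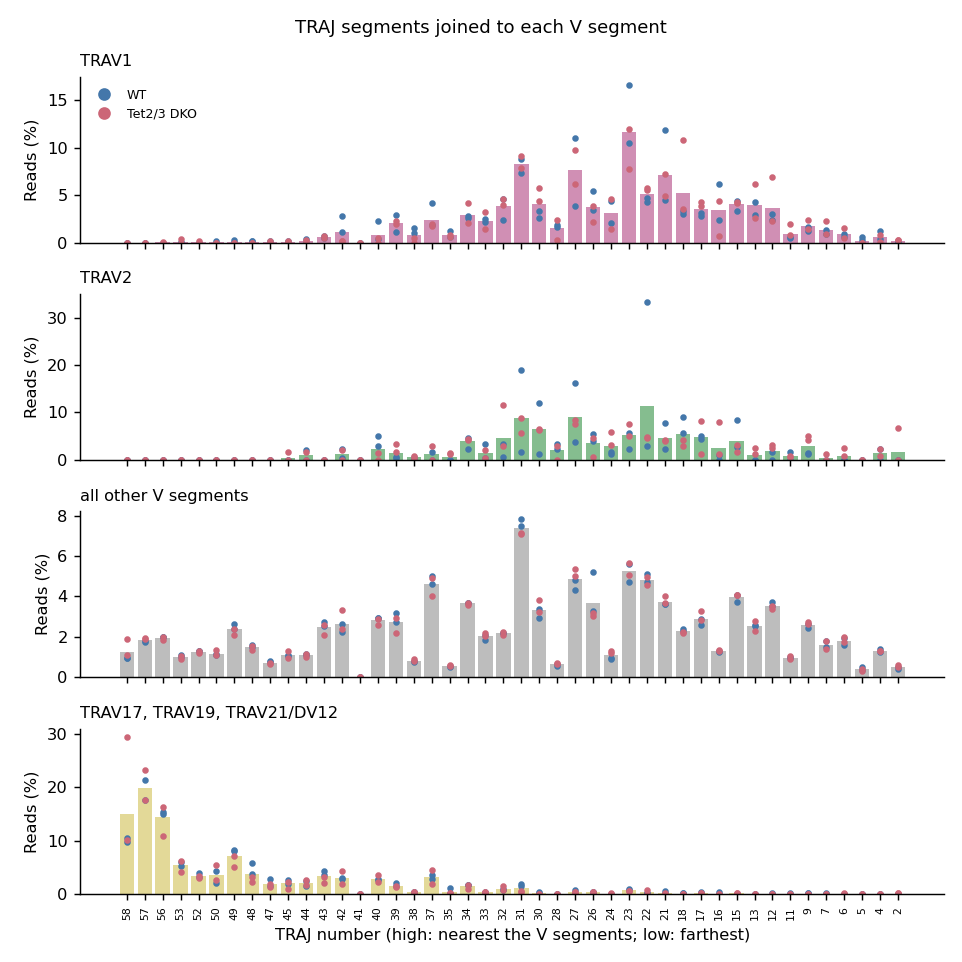
Share of the reads of TRAV1, TRAV2, all other V segments and the J-proximal segments TRAV17, TRAV19 and TRAV21/DV12 (panels, in percent of each one's reads) that joined each TRAJ segment, ordered from the V-proximal end on the left. Bars are means of 4 libraries and points are single WT (blue) and Tet2/3 DKO (red) libraries. TRAV1 and TRAV2 have almost no reads at TRAJ48 and to its left, where the J-proximal segments have most of theirs.

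Joins to the 5′ end of the TRAJ cluster were rare. TRAJ48 and above took 0.606% and 0.292% of TRAV1 reads in WT, versus 0.173% and 0.397% in Tet2/3 DKO, against 11.9% to 12.5% for all other V segments and 68.2% to 79.7% for the J-proximal ones. TRAV2 had 0 reads with these TRAJ segments in each library, which allows shares of up to 1.68% and 1.00% in WT, compared with 1.27% and 0.840% in Tet2/3 DKO. Of 77 V segments, TRAV2 had the lowest and TRAV1 the second lowest mean share of TRAJ48 and above. By library TRAV1 was number 5 and 2 from the lowest in WT, compared with 2 and 4 in Tet2/3 DKO. Low shares were not particular to them: the means were 0.461% for TRAV5-1, 0.864% for TRAV3D-3 and 1.10% for TRAV6-1. TRAV5-1 was below TRAV1 in WT library 1 (0.545%) and Tet2/3 DKO library 2 (0.164%). It was above TRAV1 in WT library 2 (0.856%) and Tet2/3 DKO library 1 (0.277%). The limits for TRAV2 lay above the TRAV1 shares in each library, so the order of TRAV2 among the lowest segments was not resolved. The middle of the cluster held more of their reads instead. TRAJ14 to TRAJ24 took 40.4% to 46.9% of TRAV1 reads and 33.9% to 54.0% of TRAV2 reads, against 23.9% to 25.8% for all other V segments. TRAJ25 to TRAJ36 took 33.5% to 38.2% of TRAV1 reads and 33.3% to 49.7% of TRAV2 reads, against 27.4% to 29.6%.

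TRAJ2 to TRAJ13 took 11.3% and 11.7% of TRAV1 reads in WT, versus 11.6% and 19.2% in Tet2/3 DKO, against 14.8% to 15.5% for all other V segments. TRAV1 was above the other segments only in the second Tet2/3 DKO library (exact sign-flip permutation test, p = 0.625). TRAV2, with 3.35%, 4.67%, 20.3% and 14.3% in the same order, was above them only in the first Tet2/3 DKO library (mean difference -4.50 ± 8.02, exact sign-flip permutation test, p = 0.375, adjusted p = 0.417). Although they lie farthest from the TRAJ cluster, TRAV1 and TRAV2 did not have the lowest mean TRAJ numbers. They were numbers 23 and 26 from the lowest of 77 V segments, for which the median was 25.7. TRAV12N-2, which lies 928 kb before Traj61, had the lowest mean, 20.1, though 94.9% of its reads also matched another V segment. Over the 77 segments the Spearman correlation of distance to Traj61 with the mean TRAJ number was -0.74, and over the 47 with under 5% of reads matching several V segments it was -0.89. The points share libraries and TRAJ segments, and the correlation is given as a description.

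**Figure D3:**
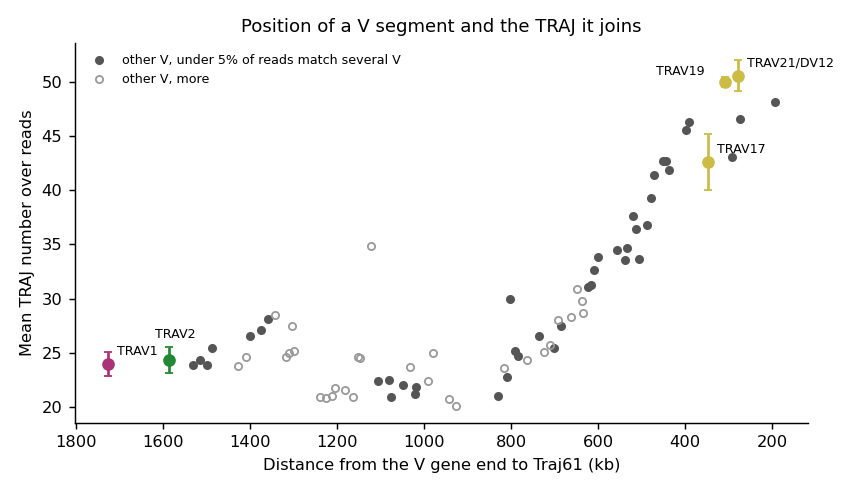
Mean TRAJ number over reads (mean of 4 libraries) against the distance in kb from the end of each V gene to Traj61, for 77 V segments, with TRAV1, TRAV2 and the J-proximal segments coloured and shown with the SD over libraries. The means fell with distance from TRAV21/DV12 (50.6) to TRAV12N-2 (20.1) and went no lower beyond it, and TRAV1 (23.96) and TRAV2 (24.4) are the 2 leftmost points.

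The TRAJ profile of TRAV1 over 44 TRAJ segments was most like those of TRAV5-1 (Spearman 0.94), TRAV7-2 (0.89) and TRAV6-1 (0.88), of 59 V segments with at least 500 reads in each library. That of TRAV2 was most like TRAV1 (0.91), TRAV5-1 (0.86) and TRAV8-1 (0.84). TRAV5-1 and TRAV6-1 lie 1532 kb and 1516 kb before Traj61, near TRAV2, and TRAV7-2 lies 764 kb before it, where all of its reads also matched other V segments. TRAV8-1 lies 685 kb before Traj61, with 0.142% of its reads matching several V segments. These correlations are across TRAJ segments of the same libraries and were not tested.

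TRAV1 joined 41 and TRAV2 32 of the 44 TRAJ segments seen. By mean share TRAJ23 was the first TRAJ of TRAV1, with 16.6% and 10.4% of its reads in WT, compared with 7.71% and 11.9% in Tet2/3 DKO, above its share in all other V segments (4.697% to 5.65%) in 4 of 4 libraries. It was not the first in each library: TRAJ21 (11.8%) and TRAJ27 were above it in WT library 2, and TRAJ18 (10.8%) and TRAJ31 in Tet2/3 DKO library 1. TRAJ31 followed, with 8.76% and 7.31% in WT, versus 9.14% and 7.82% in Tet2/3 DKO, close to the 7.09% to 7.82% of the other segments. TRAJ27 came next, with 3.84% and 10.98% in WT, compared with 6.21% and 9.69% in Tet2/3 DKO. In WT library 2, 129 of 263 TRAV1-TRAJ27 reads carried 1 CDR3 nucleotide sequence, listed as 2 clones.

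The first TRAJ of TRAV2 by mean share was TRAJ22, with 2.79% and 33.3% in WT, versus 4.66% and 4.76% in Tet2/3 DKO. The high value rested on 1 clone, with 85 of 100 reads. TRAJ27 took 16.2% and 3.67% of TRAV2 reads in WT, compared with 8.47% and 7.56% in Tet2/3 DKO. TRAJ31 took 19.0% and 1.67% in WT, versus 8.90% and 5.60% in Tet2/3 DKO, with 22 of 34 reads of WT library 1 from 1 clone. For TRAJ23, TRAJ31 and TRAJ27 of TRAV1 and for TRAJ22, TRAJ27 and TRAJ31 of TRAV2, the WT libraries were farther apart than the genotype means.

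Of the V-J pairs of these segments, 59 had at least 10 reads over the libraries (33 of TRAV1 and 26 of TRAV2), and edgeR called 0 of them, against a background of 0.0% of 3087 V-J pairs. At an unadjusted p under 0.05 edgeR returned 3 of the 59 (TRAV1 with TRAJ42, TRAJ23 and TRAJ38), all lower in Tet2/3 DKO, against 147 (4.76%) of all pairs, of which 82 were higher and 65 lower. DESeq2 called 0 of the 59 and returned 1 at an unadjusted p under 0.05, against 11 and 125 of all pairs. The median log2 fold change was -0.21 over the 59 pairs and -0.05 over all pairs, and 21 of the 59, against 1433 of the 3087, were higher in Tet2/3 DKO. By segment, 8 of 33 TRAV1 pairs (median -0.27) and 13 of 26 TRAV2 pairs (median -0.04) were higher. Pair counts were scaled to all TCRα reads, so the TRAV1 pairs also carry the difference in the TRAV1 share of reads.

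The smallest p was that of TRAV1-TRAJ42, which is named here because it was called in one setting. It had 41 and 27 reads in WT, compared with 3 and 3 in Tet2/3 DKO, a log2 fold change of -3.77 (SE 0.93, edgeR, unadjusted p = 0.00217, adjusted p = 0.983). In WT library 1, 36 of its 41 reads came from 1 clone. Without the filter on low counts its adjusted p in edgeR was 0.0337, in a setting that called 50 of 3729 V-J pairs.

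The mean TRAJ number of TRAV1 overlapped between genotypes (difference of Tet2/3 DKO minus WT -1.18, exact permutation test, two-sided, p = 0.667), and it was -0.30 without WT library 1 and -2.06 without WT library 2. For TRAV2 both Tet2/3 DKO means lay below both WT means (-1.51, exact permutation test, p = 0.333), as they did for 26.0% of V segments. Clones of at least 2 reads gave -1.14, with overlapping genotypes (p = 0.667, exact permutation test), and without Tet2/3 DKO library 1 it was -0.53. Out-of-frame clones alone turned the TRAV2 difference to 2.41, with both Tet2/3 DKO means above both WT means (exact permutation test, p = 0.333). This value rested on 9 and 14 out-of-frame TRAV2 clones in WT, compared with 15 and 22 in Tet2/3 DKO. How many V segments had this order out of frame was not counted. Counted by clones, both Tet2/3 DKO means were the lower ones for TRAV1 (24.6 and 23.7, a difference of -0.92) and for TRAV2 (23.4 and 23.0, a difference of -2.89), as for 32.5% of V segments. TRAJ37 to TRAJ47 took 14.3% and 6.51% of TRAV1 reads in WT, but 5.64% and 5.61% in Tet2/3 DKO. Both Tet2/3 DKO shares were the lower ones, as for 23.4% of V segments, and the first WT library stood apart from the other 3. The distal TRAJ2 to TRAJ13 block took 3.35% and 4.67% of TRAV2 reads in WT, versus 20.3% and 14.3% in Tet2/3 DKO (a difference of 13.3 points in percent, p = 0.333 by the exact permutation test). Both Tet2/3 DKO libraries were the higher ones, as for 15.6% of V segments. In Tet2/3 DKO library 1, 16 of these reads (6.78% of its TRAV2 reads) were 1 TRAJ2 clone, and no other library had a TRAV2-TRAJ2 read. In TRAJ14 to TRAJ24 the order was the opposite, with 39.1% and 54.0% in WT, compared with 33.9% and 35.9% in Tet2/3 DKO, and 15.6% of V segments were lower in both Tet2/3 DKO libraries. This difference, -11.7 percentage points, was -4.23 without WT library 2, whose TRAJ22 clone of 85 reads lies in this block. Weighting clones alike gave -2.82, with overlapping genotypes (p = 0.667, exact permutation test). Over all 30 comparisons between genotypes on single values, the adjusted p was 0.833 to 1.

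A large part of TRAV1 clones was out of frame, a comparison with other V segments that was made after these values were seen. A CDR3 was called in frame when its reading frame was kept and it held no stop codon, and out-of-frame chains cannot make a receptor. Of TRAV1 reads with a CDR3, 62.1% and 56.1% in WT, versus 54.6% and 60.5% in Tet2/3 DKO, were in frame, against 89.9%, 90.1%, 89.5% and 89.99% for all other V segments. The mean difference was -31.5 ± 3.45 percentage points (SD, n = 4 libraries, lower in 4 of 4, p = 0.125 and adjusted p = 0.15 by the exact sign-flip permutation test). Counted in clones the share was 55.3% and 52.1% in WT, compared with 51.9% and 58.0% in Tet2/3 DKO, against 86.0% to 86.8% for all other V segments. Out-of-frame TRAV1 clones had 3.05 to 4.35 reads each and in-frame ones 3.85 to 5.08.

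Among 77 V segments the mean in-frame share of TRAV1, 58.3%, was the number 6 from the lowest, and the median was 89.1%. TRAV1 held 0.415% to 0.710% of all in-frame reads and 2.39% to 4.87% of all out-of-frame reads. Stop codons in a kept frame made up only 0.00% to 0.520% of its reads with a CDR3. TRAV2 was in frame in 81.0% and 87.8% of reads in WT, versus 80.1% and 75.6% in Tet2/3 DKO. Its mean difference from all other V segments was -8.72 ± 4.96 percentage points (lower in 4 of 4, p = 0.125 and adjusted p = 0.15 by the exact sign-flip permutation test). Merged clones each counted once gave -6.34 (exact sign-flip permutation test, p = 0.25), so that TRAV2 was then not lower in all 4 libraries. Between genotypes the values overlapped for TRAV1, and both Tet2/3 DKO values were lower for TRAV2, as for 18.2% of V segments by reads and, in clones (83.0% and 79.1% against 78.3% and 74.7%), for 20.8%.

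**Figure D4:**
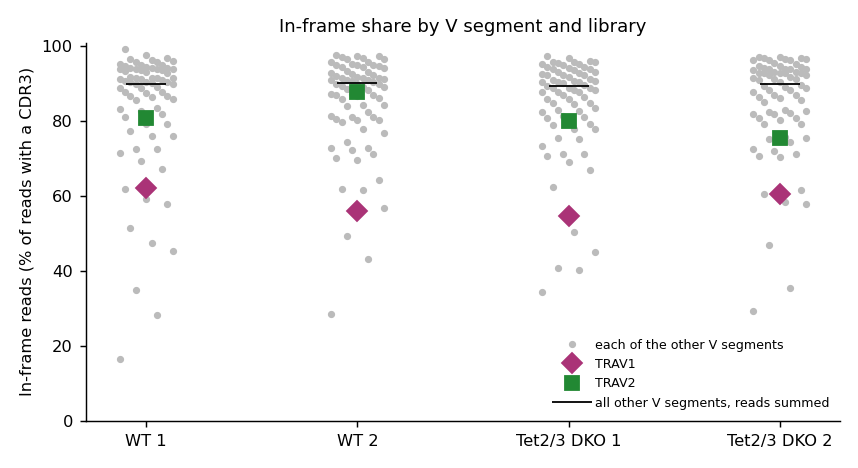
Share of reads with a CDR3 that were in frame and free of stop codons, in percent, for TRAV1 (diamonds), TRAV2 (squares), each of the other V segments (grey points) and all other V segments summed (black line) in each library. TRAV1 lies at 54.6% to 62.1%, well under the line near 90%, in all 4 libraries.

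Out-of-frame reads of both segments also joined TRAJ segments of lower number than those of other V segments. Out-of-frame TRAV1 reads had mean TRAJ numbers of 25.6 and 23.5 in WT, compared with 23.9 and 23.96 in Tet2/3 DKO, and in-frame ones 25.3 and 23.8 in WT, versus 23.99 and 21.9 in Tet2/3 DKO. Out of frame, the mean difference from all other V segments was -5.05 ± 0.97 for TRAV1 and -5.10 ± 2.11 for TRAV2 (exact sign-flip permutation test, p = 0.125 and adjusted p = 0.15 for each).

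In-frame CDR3s of TRAV2 were longer than those of all other V segments together. They averaged 14.3 and 14.1 amino acids in WT, compared with 14.6 and 14.8 in Tet2/3 DKO, against 13.4 in each library for all other V segments, longer in 4 of 4 libraries by 1.03 ± 0.28 (exact sign-flip permutation test, p = 0.125, adjusted p = 0.15). They held more inserted nucleotides, 2.92 and 2.55 in WT, versus 2.69 and 2.20 in Tet2/3 DKO, against 1.96 in each library. TRAV1 CDR3s averaged 13.8, 13.4, 13.5 and 13.7 amino acids, longer by 0.22 ± 0.15 in 4 of 4 libraries, with 1.80 to 1.94 inserted nucleotides. Those of the J-proximal segments averaged 14.1 and 14.1 amino acids in WT, versus 14.3 and 14.3 in Tet2/3 DKO. A mean length above that of all other V segments was therefore not particular to TRAV2. Both Tet2/3 DKO means of TRAV2 were above both WT means (0.51 amino acids, exact permutation test, p = 0.333), but so were those of 42.9% of V segments. Weighting clones alike gave a difference of 0.0996 amino acids, with overlapping genotypes (p = 1, exact permutation test). For TRAV1 the length overlapped between genotypes.

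TRAV1-TRAJ33, the pair of the MAIT chain, was not prominent among TRAV1 joins. TRAJ33 took 2.43% and 2.13% of TRAV1 reads in WT (36 and 51 reads) and 3.22% and 1.42% in Tet2/3 DKO (56 and 25 reads), number 18 of the TRAJ segments of TRAV1. For V segments other than TRAV1 and TRAV2 it took 1.84% to 2.16%. TRAV2-TRAJ33 had 6 and 1 reads in WT, compared with 1 and 7 in Tet2/3 DKO, and none of its in-frame CDR3s had 12 amino acids. Human MAIT chains also use TRAJ12 and TRAJ20. TRAJ12 took 2.96% and 2.42% of TRAV1 reads in WT, versus 2.30% and 6.92% in Tet2/3 DKO, and 3 TRAV1-TRAJ12 reads of 1 clone in WT library 2 had a CDR3 of 12 amino acids. TRAJ20 had 0 reads, with TRAV1 and with all other V segments.

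Among in-frame TRAV1-TRAJ33 reads, 14 of 27 (51.9%, interval 33.99% to 69.3%) and 11 of 31 (35.5%, 21.1% to 53.1%) in WT had 12 amino acids. In Tet2/3 DKO they were 29 of 36 (80.6%, 65.0% to 90.2%) and 3 of 13 (23.1%, 8.18% to 50.3%). The Tet2/3 DKO libraries held the highest and the lowest share, with the WT libraries between them (exact permutation test, two-sided, p = 1). The difference of 8.15 percentage points became -20.6 without Tet2/3 DKO library 1. In clones the share was 2 of 8 and 3 of 7 in WT, compared with 5 of 10 and 3 of 5 in Tet2/3 DKO. Both Tet2/3 DKO shares of clones were higher (exact permutation test, p = 0.333), as for 12.9% of 31 V segments with at least 5 in-frame TRAJ33 clones in each library.

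A CDR3 of 12 amino acids was also found on TRAJ33 chains of other V segments. In V segments other than TRAV1 and TRAV2, 34.2% and 38.4% of the in-frame TRAJ33 reads in WT, versus 38.7% and 25.1% in Tet2/3 DKO, had 12 amino acids. TRAV1 was above them in 2 of 4 libraries (mean difference 13.7 ± 21.1 percentage points, exact sign-flip permutation test, p = 0.5, adjusted p = 0.536). The difference was 4.28 without Tet2/3 DKO library 1 and 2.65 with merged clones each counted once. With each CDR3 nucleotide sequence counted once per library, 10 of 26 TRAV1-TRAJ33 CDR3s (38.5%) and 1058 of 3064 of the other V segments with TRAJ33 (34.5%) had 12 amino acids. Of 59 V segments with at least 10 such CDR3s, 16 had a higher share than TRAV1. Against TRAV1 joined to other TRAJ segments, where 91 of 892 CDR3s (10.2%) had 12 amino acids, the share by reads was higher in 4 of 4 libraries, by 36.1 ± 26.7 percentage points (exact sign-flip permutation test, p = 0.125, adjusted p = 0.15). Clones of at least 2 reads gave 32.0 (exact sign-flip permutation test, p = 0.25), since the 3 MAIT-like reads of Tet2/3 DKO library 2 are 3 clones of 1 read each.

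**Figure D5:**
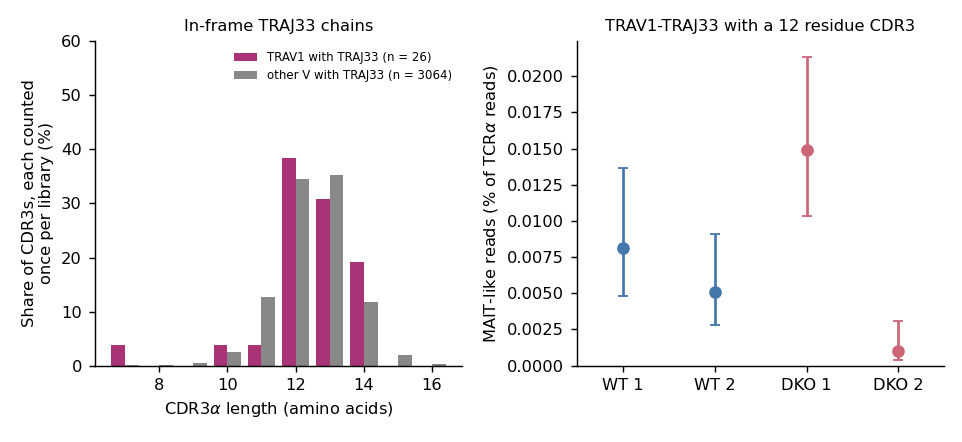
Left: lengths of in-frame CDR3s of TRAV1-TRAJ33 chains and of other V segments with TRAJ33, in percent of CDR3s with each nucleotide sequence counted once per library. Right: MAIT-like reads in percent of TCRα reads in each library, with 95% Wilson intervals for counting error. The length of 12 holds 38.5% and 34.5% of the CDR3s, and the Tet2/3 DKO libraries lie on both sides of the WT libraries.

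MAIT-like chains were rare in the CD4 sort. They numbered 57 reads of 13 clones in all, 0.00654% of TCRα reads. The WT libraries held 14 and 11 reads (0.00812% and 0.00508%) and the Tet2/3 DKO libraries 29 and 3 (0.0149% and 0.00104%). The Tet2/3 DKO libraries held the highest and the lowest value, and the genotypes did not differ beyond that spread (difference 0.00136, p = 1 by the two-sided exact permutation test). Leaving out Tet2/3 DKO library 1 turned the difference to -0.00556. The 3 reads of Tet2/3 DKO library 2 equal the limit of detection. Distinct MAIT-like CDR3 nucleotide sequences numbered 2 and 1 in WT, compared with 5 and 2 in Tet2/3 DKO. For scale, iNKT-like chains (a TRAV11 family segment with TRAJ18 and 15 amino acids) had 107 of 172506 and 117 of 216457 reads in WT. In Tet2/3 DKO these chains, whose cells the tetramer gate was set to remove, had 59 of 195046 and 55 of 287799 reads. Their counts were not tested between genotypes.

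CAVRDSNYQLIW made up 47 of the 57 MAIT-like reads (82.5%) and was present in each library, with 11 and 11 reads in WT, compared with 22 and 3 in Tet2/3 DKO. Its sequence MAIT-like 1, printed above, was found in all 4 libraries with 39 reads, of which 2 were in Tet2/3 DKO library 2. Sequence 2 had 4 reads in Tet2/3 DKO library 1 and 1 read in Tet2/3 DKO library 2. Both counts of Tet2/3 DKO library 2 lie under the limit of 3 reads. Sequence 3 had 3 reads, in Tet2/3 DKO library 1. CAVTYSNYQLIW had 4 reads and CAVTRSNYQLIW 3, both in Tet2/3 DKO library 1 only, and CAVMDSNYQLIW had 3, in WT library 1 only. The CDR3 alone did not mark TRAV1. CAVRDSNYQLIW was also carried by 16 clones of 5 other V segments with 81 reads, all with TRAJ33: TRAV7-3, TRAV7-5, TRAV7D-3, TRAV7D-5 and TRAV3D-3. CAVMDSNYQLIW was carried by 11 clones of 6 other V segments with 43 reads.

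Of 773 in-frame TRAV1 chains, defined by TRAJ segment and CDR3 amino acids, 8 (1.03%) were present in all 4 libraries and 685 (88.6%) in 1. For TRAV2 it was 0 of 194 in all 4 and 189 (97.4%) in 1, and for all other V segments 2.37% in all 4 and 81.8% in 1. These shares move with the depth of a segment, which was not evened out. Of the 8 TRAV1 chains, 7 had a form with 0 inserted bases, as did 1495 of the 2335 chains of other V segments found in all 4 libraries. For the 3 chains with most reads, the most frequent nucleotide form is given with the bases aligned to TRAJ in capitals, since chains found in all 4 libraries were few. The printed TRAJ23 and TRAJ33 forms were found in all 4 libraries and the printed TRAJ18 form in 3, with another form of the same amino acids in the remaining one.
TRAV1-TRAJ23 (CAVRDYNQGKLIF): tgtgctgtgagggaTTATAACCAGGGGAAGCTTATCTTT
TRAV1-TRAJ18: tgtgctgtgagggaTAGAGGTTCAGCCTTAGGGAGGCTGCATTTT
TRAV1-TRAJ33 (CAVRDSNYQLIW): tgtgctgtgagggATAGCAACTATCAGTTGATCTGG
The TRAJ23 chain had 17 and 22 reads in WT, versus 16 and 19 in Tet2/3 DKO. The TRAJ18 chain had 20 and 13 in WT, compared with 12 and 2 in Tet2/3 DKO. The TRAJ33 chain is the MAIT-like chain described above, and by reads it was level with the TRAJ18 chain, with 47 each.

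The most abundant CDR3 of each segment differed in every library. They are given with the bases aligned to TRAJ in capitals, since they show how much of these small segments single CDR3 sequences can hold.
TRAV1, WT 1, TRAJ23: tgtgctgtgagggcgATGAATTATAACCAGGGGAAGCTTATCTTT
TRAV1, WT 2, TRAJ21: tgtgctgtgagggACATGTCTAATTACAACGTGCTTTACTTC
TRAV1, Tet2/3 DKO 1, TRAJ18: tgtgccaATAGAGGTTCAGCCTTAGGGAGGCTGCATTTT
TRAV1, Tet2/3 DKO 2, TRAJ12: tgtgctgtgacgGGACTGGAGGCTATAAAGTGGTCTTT
TRAV2, WT 1, TRAJ31: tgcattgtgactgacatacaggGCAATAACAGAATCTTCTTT
TRAV2, WT 2, TRAJ22: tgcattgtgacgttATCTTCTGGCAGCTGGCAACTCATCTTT
TRAV2, Tet2/3 DKO 1, TRAJ2: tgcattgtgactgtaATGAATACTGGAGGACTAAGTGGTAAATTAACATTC
TRAV2, Tet2/3 DKO 2, TRAJ32: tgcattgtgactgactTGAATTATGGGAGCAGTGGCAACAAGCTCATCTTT
The TRAV1 CDR3s held 43, 170, 71 and 36 reads in this order, which were 2.90%, 7.10%, 4.08% and 2.04% of the TRAV1 reads of their libraries. The one of Tet2/3 DKO library 2 was out of frame, and the others were in frame. The TRAV2 CDR3s held 22, 85, 16 and 34 reads, or 12.3%, 28.3%, 6.78% and 9.52% of the TRAV2 reads, and all were in frame. The largest of these chains, TRAV1-TRAJ21 in WT library 2, was 0.0785% of all TCRα reads of that library.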

How the data were processed

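The TCRα part of 2 WT and 2 Tet2/3 DKO libraries of splenic CD4 T cells was analysed. The authors made the libraries by 5′ RACE, used fastp 0.21.0 per the submitters' processing notes before MiXCR built the clones, and they deposited for each clone a count of reads and the fraction of the TCRα reads that it held. The deposited fraction equalled the share of the counts and was used only for that check. Clones were kept as deposited, with the first V and J hit. TCRβ tables were not used here. Clones without a covered CDR3 (2.00% to 3.41% of reads) did not enter values that rest on the CDR3. V segments and V-J pairs with at least 10 reads were tested on counts with edgeR 4.0.16 (quasi-likelihood, library size as the total TCRα reads, Benjamini-Hochberg over all features, threshold 0.05), with DESeq2 1.42.0 as an alternative, in R 4.3.3, after the script was tested on simulated data. For single values, two-sided exact permutation tests were run (scipy 1.17.1), over 6 assignments of genotype or 16 sign flips over libraries. Gene positions are those of RefSeq on GRCm38. The segments named were the members, their 3 leading TRAJ segments and TRAJ33, the 3 most alike V segments and the J-proximal segments. TRAJ segments of human MAIT chains and the most abundant and shared CDR3s were named too. So were neighbours by share, the closest V segments by sequence and other V segments that carried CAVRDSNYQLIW. TRAJ segments above TRAJ23 in single libraries and pairs with an unadjusted p under 0.05 in edgeR were also named. TRAV1-TRAJ42, TRAV12N-2 and the comparisons of in-frame share, CDR3 length, inserted bases and TRAJ blocks with other V segments were added after their values were seen. The members and lists were chosen with earlier results of these data known. Replicates are numbered as biological, and p-values measure the spread between these libraries.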

Additional observations from a re-analysis of the deposited data

How the results depend on the processing

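Of 23 results, 6 changed sign in at least 1 alternative. The alternatives were TMM factors, DESeq2, no filter, each clone counted once, clones with at least 2 reads, clones merged by V, J and CDR3, V hits without ties, in-frame or out-of-frame clones only, and each library left out. Merged clones each counted once, and all alternatives of the in-frame share and CDR3 length against other segments of the TRAJ blocks of TRAV2 and, apart from drawing down, of the number of distinct MAIT-like sequences, were chosen after seeing the data. The mean differences from other V segments in mean TRAJ number, in-frame share and CDR3 length kept their sign throughout. Counted by clones, the difference between genotypes in the in-frame share of TRAV1 turned to 1.303 percentage points, and to 2.20 with merged clones. Among out-of-frame clones the difference in mean TRAJ number of TRAV2 turned to 2.41. The log2 fold change of TRAV2 was -0.017 without tied V hits and -0.11 for in-frame clones. Without the filter 1 TRAV1 or TRAV2 pair was called, TRAV1-TRAJ42. Over all V-J pairs, 0 were called, against 50 without the filter, 11 with DESeq2, and 18, 2 and 1 without Tet2/3 DKO replicate 1, Tet2/3 DKO replicate 2 and WT replicate 2. In these cases the cause was not tested.

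With each library left out in turn, some differences of Tet2/3 DKO minus WT changed sign. They ran from -4.54 to 1.499 percentage points for the in-frame share of TRAV1, from -0.14 to 0.19 amino acids for its CDR3 length, and from -20.6 to 36.9 percentage points for the TRAV1-TRAJ33 share with 12 amino acids. They ran from -0.00556 to 0.00827 percentage points for MAIT-like reads and, on the log2 scale, from -0.18 to 0.24 for TRAV2 reads. Without a change of sign, the difference ran from -0.68 to -0.14 for TRAV1 reads (log2), from -2.06 to -0.30 for the mean TRAJ number of TRAV1 and from -2.48 to -0.53 for that of TRAV2. It ran from -9.98 to -3.15 percentage points for the in-frame share of TRAV2, from -19.1 to -4.23 for its TRAJ14 to TRAJ24 reads, and from 0.5 to 3.5 for distinct MAIT-like sequences. V segments called numbered 0 to 4, with the 4 obtained without Tet2/3 DKO replicate 1 and neither TRAV1 nor TRAV2 among them. A library left alone in its genotype is assumed to vary like the other genotype. Drawn down to 172506 reads, the libraries held 2, 1, 5 and a mean of 1.45 distinct MAIT-like sequences.

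Replicates share only a number. Their differences correlated at 0.07 over V segments and -0.06 over V-J pairs, and with the replicate block the log2 fold change was -0.40 for TRAV1 and 0.03 for TRAV2 with 0 V segments called. The MAIT-like comparison rests on 2 libraries per genotype with 3 to 29 reads each.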
